A study of Mus musculus with 14 samples.

Results

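The 43 genes described here encode assembly factors of the mitochondrial respiratory chain, proteins that help to build its complexes without being part of the finished enzymes. They were taken as a named list, 13 for complex I, 4 for complex II, 6 for complex III, 18 for complex IV and 2 for complex V, the ATP synthase. All 43 were matched among the 55416 genes of the count table, and all 43 passed the filter on low counts that left 18430 genes to test. RNA sequencing had been done on 14 libraries of 3 mouse stem cell lines given the METTL3 inhibitor STM2457 or DMSO, its solvent. METTL3 writes N6-methyladenosine (m6A) on RNA, and the comparison asks how the transcripts of each line stand after 12 h with 50 µM inhibitor.

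XEN cells are extraembryonic endoderm stem cells, labelled wild type and grown in DMEM with serum, with 3 libraries per arm. TSC are trophoblast stem cells, also labelled wild type and grown with Fgf4 in medium conditioned by mouse embryonic fibroblasts, with 2 libraries per arm. EpiSC are epiblast stem cells of genotype XmolXmus-ΔTsix, grown with Fgf2 and Activin A in serum replacement, with 2 libraries per arm. The strain of every line is given as Hybrid(Mus molossinus X Mus musculus), so the deletion in EpiSC and the medium of each line are shared by both of its arms and cannot be told apart from the line. Each kind of cell is 1 line. Whether replicates came from separate cultures is not stated in the labels, so the p-values reflect spread among these libraries alone, which may be technical.

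The respiratory chain is assembled in the inner mitochondrial membrane from subunits of nuclear and mitochondrial origin. Assembly factors hold intermediates together, insert haem, copper, flavin and iron-sulfur groups, and chaperone single subunits until their partners arrive. Complex I is built from modules, among them a membrane module whose early intermediate is held by the MCIA complex, which contains Ndufaf1, Ecsit, Acad9, Tmem126b and Timmdc1. As background on m6A, the mark is found mostly in long exons away from exon junctions, and marked messages are often short-lived.

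Total counts were 6826496 to 10024628 in XEN, 17909934 to 20354242 in TSC and 18640099 to 21097380 in EpiSC, and single members had 36 to 2374 counts per library. Levels are given as CPM, counts scaled to the library total with TMM factors. The 7 marker genes of each line summed to 2721 to 3114 CPM in XEN, 2744 to 2916 in TSC and 1065 to 1327 in EpiSC for the line's own list. The EpiSC list also summed to 467.7 to 507.4 CPM in TSC and 130.2 to 170.3 CPM in XEN. The TSC list summed to 155.8 to 164.5 CPM in EpiSC, and other sums of a list outside its line were at most 40.91 CPM. The 6 fibroblast markers summed to 4.99 to 59.46 CPM over all libraries. Some sums moved with STM2457: EpiSC markers in EpiSC were 1271 to 1327 CPM in DMSO and 1065 to 1173 CPM with inhibitor, and fibroblast markers there 52.96 to 59.46 and 46.26 to 48.43 CPM. In TSC, XEN markers went from at most 33.83 to at least 40.19 CPM and fibroblast markers from at most 15.52 to at least 17.91 CPM. The part of these shifts in the changes below was not tested. Mitochondrial ribosomal RNA took 12.02 to 16.01% of counts in XEN and 0.0366 to 0.0505% elsewhere, and its part in the differences between lines was not tested. In such bulk libraries, a change in the make-up of a culture and a change in RNA per cell cannot be told apart.

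Averaged over the 3 lines, 10 of the 43 genes changed with STM2457, 7 upward and 3 downward. That is 23.3% of the list, beside 13.4% of all genes tested, and the shares of all genes were 7.78% for rises and 5.62% for falls. The genes that rose were Coa7, Sco2, Ndufaf1, Ndufaf4, Coa6, Sdhaf2 and Cox10, and those that fell were Sdhaf4, Timmdc1 and Cox18. The median member moved by 0.02 on the log2 scale, beside -0.003 for all genes tested, so the list as a whole did not shift in 1 direction. A gene is called here at a Benjamini-Hochberg adjusted p under 0.05 over all 18430 genes, from edgeR's quasi-likelihood test, and fold changes are log2 ± SE. With the libraries of XEN paired by replicate number, 18 members were called, 11 higher and 7 lower, beside 28.7% of all genes. Those added were Ndufaf2, Ndufaf7, Sdhaf1 and Cox19, higher, and Nubpl, Uqcc2, Cox16 and Cmc1, lower. The pairing adds terms for XEN libraries only, and it changes p-values in TSC and EpiSC through the spread that all groups share. Lower p-values there, here and below, are thus not added evidence from the libraries of those lines. With libraries scaled to ribosomal protein genes, the split was 7 higher and 1 lower, beside 7.45% of all genes called, 89.9% of them higher.

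**Figure D1:**
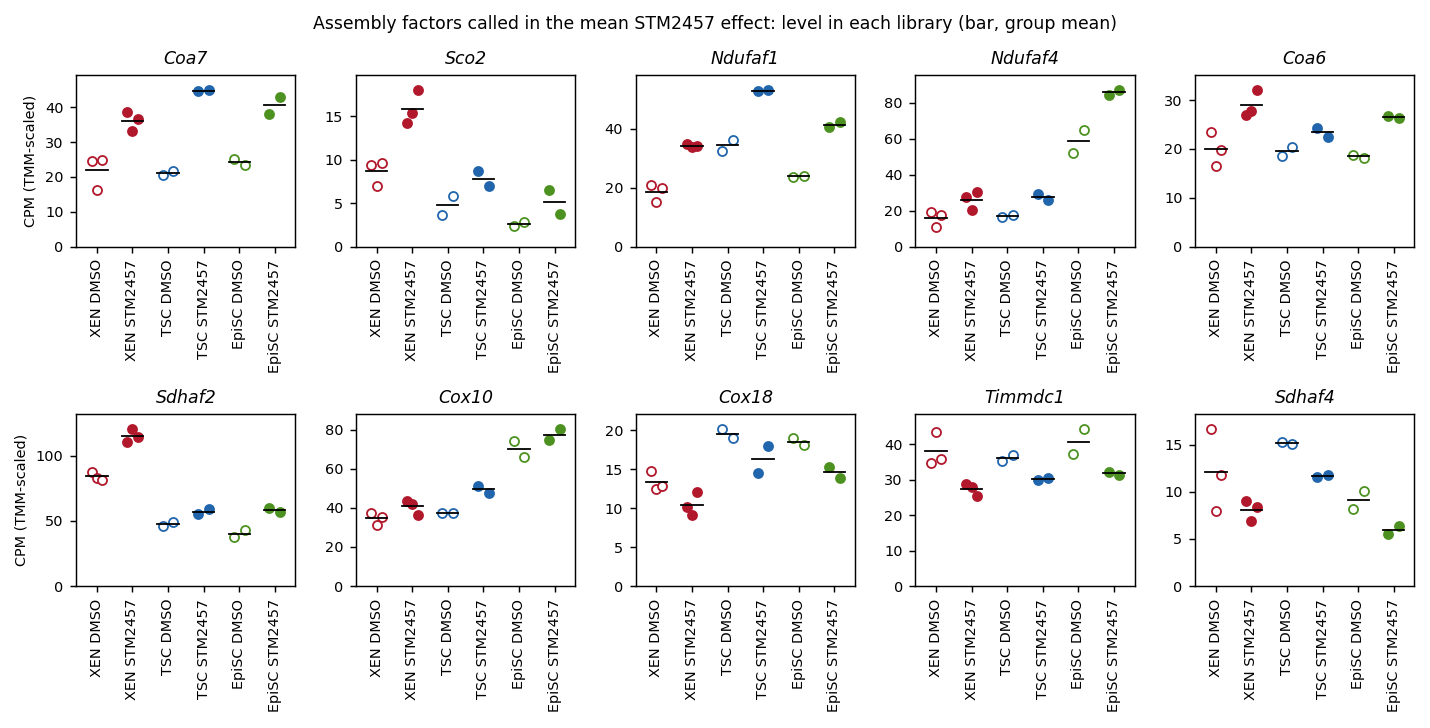
CPM of the 10 assembly factors called in the mean STM2457 effect, 1 panel per gene, with DMSO libraries as open and STM2457 libraries as filled points and a bar at each group mean. The vertical axes start at 0 and differ between genes; Coa7 in TSC stands at 20.5 and 21.9 CPM without and at 44.6 and 44.9 CPM with STM2457.

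Promoter sequences of 4 genes that moved are shown so that the letters upstream of rising and falling genes can be set side by side. They are the 150 bases before the annotated start, 5′ to 3′ on the gene's strand, from RefSeq on GRCm38.p6: chr2:119662835-119662984 (minus strand) for Ndufaf1, chr4:24897933-24898082 (plus) for Ndufaf4, chr4:108328002-108328151 (plus) for Coa7 and chr16:38522664-38522813 (minus) for Timmdc1. Capitals mark matches, on either strand, to letters bound by factors known for mitochondrial genes: GCGC, any 2 bases and GCGC for NRF1, CCGGAAG for the ETS factor GABP, and AANATGGC for YY1.
Ndufaf1: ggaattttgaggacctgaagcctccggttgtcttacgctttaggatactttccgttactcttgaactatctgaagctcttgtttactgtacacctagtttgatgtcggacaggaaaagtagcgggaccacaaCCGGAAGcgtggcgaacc
Ndufaf4: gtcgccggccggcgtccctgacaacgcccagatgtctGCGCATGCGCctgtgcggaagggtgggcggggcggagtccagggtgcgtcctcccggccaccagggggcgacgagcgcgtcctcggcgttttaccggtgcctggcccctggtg
Coa7: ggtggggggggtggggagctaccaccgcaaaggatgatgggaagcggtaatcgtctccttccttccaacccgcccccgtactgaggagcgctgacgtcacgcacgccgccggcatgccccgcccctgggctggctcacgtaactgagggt
Timmdc1: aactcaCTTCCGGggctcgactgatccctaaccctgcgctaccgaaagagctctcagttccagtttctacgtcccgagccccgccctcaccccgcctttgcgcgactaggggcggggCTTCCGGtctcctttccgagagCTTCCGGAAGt

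The window table held 38 of the 43 members. In the 250 bases before the start, 11 members (28.9%) had the GABP letters, among them Ndufaf1, Sdhaf2 and Cox10, which rose, and Timmdc1, which fell and had 4 matches, 2 of them overlapping on opposite strands. Of all 32851 windows, 6.9% held them. The NRF1 letters stood in 3 members (7.9%, against 5.0% of all windows), Ndufaf4, Atpaf2 and Uqcc2, and the YY1 letters in 4 (10.5%, against 3.9%), Sdhaf2, Cox20, Lyrm7 and Ndufaf3. Member windows were richer in G and C, with a median of 60.8% against 52.4%, and the effect of that on the shares was not tested. Of the called genes, Ndufaf1, Sdhaf2, Cox10 and Timmdc1 thus held the GABP letters, Timmdc1 alone among those that fell. Ndufaf4 lacked these letters, and Coa7, Sco2 and Sdhaf4 held none of the 3 motifs in their windows. Coa6 and Cox18 had no window and were not searched.

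Among the 13 complex I factors, Ndufaf1 and Ndufaf4 rose and Timmdc1 fell. Ndufaf1 encodes the MCIA subunit also called CIA30. XEN controls stood at 20.8, 15.2 and 20.0 CPM and treated libraries at 34.96, 33.8 and 34.2 CPM. TSC controls stood at 32.5 and 36.4 CPM, against 52.8 and 53.15 CPM with inhibitor. In EpiSC the values were 23.7 and 24.0 CPM against 40.6 and 42.2 CPM. Every treated library lay above every control of its line. The same held for 8.4% of all genes tested in XEN, 27.9% in TSC and 29.6% in EpiSC, and the reverse for 7, 27.8 and 26.5%, so arms of 2 libraries are often apart. Among the 43 members, 6, 13 and 14 were all above and 4, 14 and 14 all below. The log2 change was 0.87 ± 0.12 in XEN (adjusted p = 0.0006687), 0.62 ± 0.13 in TSC (adjusted p = 0.03134) and 0.80 ± 0.13 in EpiSC (adjusted p = 0.005755), or 1.70-fold on average (0.76 ± 0.07, adjusted p = 7.318e-06).

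Ndufaf4, which acts early on the arm of complex I that binds ubiquinone, followed the same direction from unequal starting levels. Its XEN controls gave 19.1, 10.9 and 17.6 CPM, and the treated libraries 27.5, 20.4 and 30.3 CPM. TSC gave 16.5 and 17.6 CPM against 29.4 and 26.2 CPM, and EpiSC 52.0 and 65.1 CPM against 84.5 and 87.0 CPM. The arms did not overlap in any line, although the second DMSO library of XEN was well below the other two. The mean change was 0.66 ± 0.11 (adjusted p = 0.000979). Among single lines it passed in XEN (0.71 ± 0.18, adjusted p = 0.03878), while TSC had 0.71 ± 0.20 (adjusted p = 0.1118) and EpiSC 0.55 ± 0.19 (adjusted p = 0.159). With XEN paired, all 3 lines passed, with adjusted p of 3.66e-05 in TSC and 7.58e-05 in EpiSC, where only the shared spread had changed.

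Timmdc1, an MCIA-associated membrane protein, moved the other way. In XEN it fell, with controls at 34.6, 43.4 and 35.9 CPM and treated libraries at 28.6, 28.0 and 25.3 CPM (-0.47 ± 0.12, adjusted p = 0.0306). TSC gave 35.2 and 37.0 CPM against 29.8 and 30.5 CPM with inhibitor, and EpiSC 37.2 and 44.1 CPM against 32.3 and 31.3 CPM. All treated libraries were below all controls of their line, and the mean change was -0.36 ± 0.07 (adjusted p = 0.003448). This call did not hold with ribosomal protein scaling, where the mean change had an adjusted p of 0.1485. The remaining MCIA genes gave mean changes of 0.02 ± 0.07 for Ecsit, -0.10 ± 0.07 for Acad9 and -0.09 ± 0.09 for Tmem126b, none of them called, so transcripts of this 1 complex went in different directions.

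None of the other complex I factors passed. Ndufaf2, which binds a late intermediate, had a mean change of 0.25 ± 0.10 (adjusted p = 0.1319), and the methyltransferase Ndufaf7 had 0.23 ± 0.10. Ndufaf3, the partner of Ndufaf4, had -0.14 ± 0.10, beside the rise of Ndufaf4. The iron-sulfur carrier Nubpl had -0.23 ± 0.09 (adjusted p = 0.1337), the hydroxylase Ndufaf5 -0.23 ± 0.11, Ndufaf6 -0.17 ± 0.11 and the oxidoreductase Foxred1 -0.06 ± 0.07. With XEN paired, Ndufaf2 and Ndufaf7 were called higher and Nubpl lower in the mean, with adjusted p of 0.01666, 0.007485 and 0.02211.

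The 4 complex II factors serve its catalytic subunits, Sdha, which carries flavin, and Sdhb, which carries iron-sulfur clusters. Sdhaf2 is needed to attach flavin to Sdha. XEN controls stood at 87.7, 83.1 and 81.9 CPM and treated libraries at 110.7, 120.3 and 114.2 CPM. EpiSC gave 37.5 and 42.9 against 60.1 and 56.8 CPM, and TSC 46.3 and 49.4 against 55.2 and 59.0 CPM. No arm overlapped its control. It rose in XEN (0.45 ± 0.09, adjusted p = 0.009206), in EpiSC (0.54 ± 0.11, adjusted p = 0.01839) and in the mean (0.42 ± 0.06, adjusted p = 0.0002316), and TSC gave 0.26 ± 0.11 (adjusted p = 0.3035, or 0.04051 with XEN paired).

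Sdhaf4, which binds Sdha once it holds its flavin, fell in the mean by 0.53 ± 0.13 on the log2 scale (adjusted p = 0.0143). Its libraries gave 16.6, 7.93 and 11.8 CPM against 8.99, 6.90 and 8.33 CPM in XEN, 15.3 and 15.1 against 11.6 and 11.8 CPM in TSC, and 8.15 and 10.1 against 5.52 and 6.32 CPM in EpiSC. The arms overlapped in XEN and not in the other lines. No single line passed (adjusted p = 0.1699, 0.5149 and 0.2273 in XEN, TSC and EpiSC). With XEN paired, the XEN and EpiSC falls passed, with adjusted p of 0.01342 and 0.006086. The mean call did not hold without the second EpiSC control (adjusted p = 0.0651) or the first treated EpiSC library (adjusted p = 0.05802). The transcripts of both client subunits fell in the mean, Sdha by 0.36 ± 0.07 and Sdhb by 0.49 ± 0.08, as given with the other subunits further on.

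Sdhaf1 and Sdhaf3, LYR-motif proteins that help iron-sulfur insertion into Sdhb, did not pass in any line. Sdhaf1 had 16.8, 9.23 and 10.7 CPM in XEN controls and 18.3, 18.6 and 15.9 CPM with STM2457, overlapping arms with a change of 0.53 ± 0.17 (adjusted p = 0.09916, or 0.006362 with XEN paired). Without the first XEN control it was 0.81 (adjusted p = 0.00497), so the call depends on this library and on the fit used. With all libraries, DESeq2 also called Sdhaf1 in XEN (0.51, adjusted p = 0.02727). In the annotation, 69.6% of its exon bases lie opposite E130208F15Rik, which had at most 1.70 CPM in any group mean. Sdhaf3 had a mean change of 0.17 ± 0.11.

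None of the 6 complex III factors passed in a line or in the mean. Uqcc1 and Uqcc2, which bind newly made cytochrome b, had mean changes of -0.03 ± 0.07 and -0.24 ± 0.09, and Uqcc3, which acts after them, 0.15 ± 0.11. The Rieske protein is moved by Bcs1l (0.03 ± 0.09), held by Lyrm7 (-0.13 ± 0.09) and cleared of fragments by Ttc19 (0.10 ± 0.09). Uqcc2 had changes of -0.20, -0.21 and -0.31 in XEN, TSC and EpiSC (mean adjusted p = 0.09824, or 0.001716 with XEN paired). Lyrm7 gave 20.4 and 18.3 CPM in TSC controls and 12.6 and 14.0 CPM with STM2457 (-0.54 ± 0.17, adjusted p = 0.1534), and 27.0 and 24.1 against 32.5 and 26.3 CPM in EpiSC (0.20 ± 0.16). The EpiSC arms overlapped, and the TSC arms did not, as for 27.8% of all genes in that direction.

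Of the 18 complex IV factors, Coa7, Sco2, Coa6 and Cox10 rose in the mean and Cox18 fell. Coa7 is a haem-binding protein of the intermembrane space. XEN controls gave 24.6, 16.4 and 24.8 CPM and treated libraries 38.6, 33.2 and 36.7 CPM. TSC gave 20.5 and 21.9 against 44.6 and 44.9 CPM, and EpiSC 25.2 and 23.4 against 38.2 and 42.99 CPM. The arms were apart in each line, and the 2 treated TSC libraries were the highest of all 14. Coa7 rose by 0.72 ± 0.14 in XEN (adjusted p = 0.008349), 1.08 ± 0.16 in TSC (2.12-fold, adjusted p = 0.004003) and 0.74 ± 0.15 in EpiSC (adjusted p = 0.02354), and in the mean by 0.85 ± 0.09 (adjusted p = 1.291e-05). The TSC effect minus the XEN effect was 0.36 ± 0.21 (adjusted p = 0.9881), so a difference between lines was not shown.

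Sco2 and Coa6 act together in delivering copper to the Cox2 subunit. Sco2 stood at 9.40, 6.96 and 9.64 CPM in XEN controls and at 14.2, 15.3 and 18.0 CPM with STM2457, at 3.64 and 5.88 against 8.68 and 6.94 CPM in TSC, and at 2.43 and 2.88 against 6.54 and 3.78 CPM in EpiSC. The arms did not overlap in any line. The mean rise was 0.84 ± 0.16 (adjusted p = 0.001967). Single lines gave 0.86 ± 0.24 in XEN (adjusted p = 0.05146), 0.72 ± 0.27 in TSC (adjusted p = 0.2537) and 0.95 ± 0.30 in EpiSC (adjusted p = 0.1245; 0.50 without the first treated EpiSC library), each called with XEN paired (adjusted p = 0.00496, 0.03537 and 0.01462). The counts of Sco2 are uncertain, since 68.3% of its exon bases overlap Tymp on the same strand and 66.2% overlap Ncaph2 on the other, and the sources used here do not state whether counting used strand. Ncaph2 stood at group means of 169.4 to 229.9 CPM and was not called in any line (mean change -0.14 ± 0.08), and Tymp had at most 1.05 CPM in a group mean.

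Coa6 rose in XEN, with controls at 23.5, 16.5 and 19.9 CPM and treated libraries at 27.0, 27.8 and 32.03 CPM (0.53 ± 0.14, adjusted p = 0.0344). TSC gave 18.7 and 20.5 against 24.3 and 22.6 CPM, and EpiSC 18.7 and 18.3 against 26.8 and 26.4 CPM. The arms were apart in all 3 lines, and the mean rise was 0.44 ± 0.08 (adjusted p = 0.00243). EpiSC gave 0.53 ± 0.15 (adjusted p = 0.09115, or 0.0009502 with XEN paired) and TSC 0.26 ± 0.15 (adjusted p = 0.4953). The remaining copper proteins did not pass: Sco1, the close relative of Sco2, had a mean change of -0.04 ± 0.08, Cox17, which hands copper to both, 0.17 ± 0.10, Cox11, which serves Cox1, -0.18 ± 0.09, and its partner Cox19 0.21 ± 0.10. The pair of Sco proteins therefore gave unequal values, 0.84 against -0.04, in the same libraries; the difference between the 2 genes was not tested.

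Haem A is made by Cox10 and then Cox15. Cox10 stood at 37.3, 31.4 and 35.5 CPM in XEN controls and at 43.6, 42.1 and 36.6 CPM with inhibitor, at 37.4 and 37.3 against 51.3 and 47.8 CPM in TSC, and at 74.2 and 66.0 against 75.0 and 80.2 CPM in EpiSC. The XEN arms overlapped, since 1 control lay above 1 treated library, and the others did not. It rose in the mean by 0.26 ± 0.07 (adjusted p = 0.01442), and in TSC alone gave 0.41 ± 0.12 (adjusted p = 0.1293, or 0.00206 with XEN paired). The mean call was lost without the first or second TSC control, the first treated TSC, the second EpiSC control or the second treated EpiSC library, with adjusted p of 0.05172, 0.05931, 0.06781, 0.07766 and 0.07216. Cox15 had a mean change of 0.06 ± 0.06.

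Cox18, which helps to insert Cox2 into the membrane, fell in the mean by 0.32 ± 0.09 on the log2 scale (adjusted p = 0.03139). XEN gave 14.7, 12.5 and 12.8 CPM against 10.2, 9.07 and 12.1 CPM, TSC 20.1 and 19.0 against 14.5 and 18.0 CPM, and EpiSC 19.0 and 18.2 against 15.4 and 13.8 CPM. All treated libraries were below the controls of their line, as were 7, 27.8 and 26.5% of all genes in XEN, TSC and EpiSC. The call was nevertheless near the threshold, and Cox18 lost it with ribosomal protein scaling (adjusted p = 0.2034), and without either TSC control, the first treated TSC library or any 1 EpiSC library (adjusted p = 0.06227 to 0.1329). Cox20 and Cox16, which also act on Cox2, had mean changes of 0.02 ± 0.12 and -0.37 ± 0.16 (adjusted p = 0.1503, or 0.005846 with XEN paired). In the annotation, 91.1% of Cox20's exon bases lie opposite Hnrnpu (753.5 to 1150 CPM) and 56.8% of Cox16's overlap Gm20498 on the same strand, so counts of both are uncertain.

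The factors around Cox1, the catalytic core, did not pass in any line. Its translational activator Taco1 had a mean change of 0.12 ± 0.09, Coa3 and Cmc1, which hold the new Cox1, 0.08 ± 0.09 and -0.24 ± 0.09, and Surf1 -0.11 ± 0.07. Cmc1 in TSC gave 22.3 and 26.0 CPM without and 17.0 and 16.9 CPM with inhibitor (-0.51 ± 0.16, adjusted p = 0.161, or 0.003863 with XEN paired). Coa5, an assembly factor of the intermembrane space, had -0.05 ± 0.05, and Pet100 -0.15 ± 0.13. Atpaf1 and Atpaf2, chaperones of the ATP synthase head, had mean changes of 0.12 ± 0.07 and 0.01 ± 0.09 and did not pass either.

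Counted by line, 6 of 43 members were called in XEN (5 higher, 1 lower), where 4.15% of all genes were, 3.07% higher and 1.07% lower. In TSC 2 were called, both higher, beside 0.966% of all genes (0.836% higher, 0.13% lower). In EpiSC 3 were called, all higher, beside 1.68% (1.28% higher, 0.402% lower). Ndufaf1 and Coa7 were called in each line, with the spread shared by all groups. In an edgeR fit of the XEN libraries alone, neither was called (adjusted p = 0.07003 and 0.1624), nor was any other member, beside 0.191% of all genes. Both were called in TSC and EpiSC when each was fitted alone, beside 30.2 and 29.2% of all genes. With XEN paired, the counts became 12 (8 higher, 4 lower), 9 (6 and 3) and 12 (6 and 6), and the shares of all genes rose to 15.8, 15.4 and 17.2%. With ribosomal protein scaling, 2 members were called in XEN, both higher, beside 0.76% of all genes. The XEN count was 3 without the third control, the first treated or the third treated library, beside 2.26, 2.48 and 4.24% of all genes. The TSC count was 0 without any 1 TSC library and 1 without any 1 EpiSC library, where the share of all genes also fell, to 0.0156 to 0.0624% and 0.317 to 0.365%. The EpiSC count was 0 without any 1 EpiSC library, 1 without either treated TSC library and 5 without the second XEN control. Without 1 EpiSC library, 0.0365 to 0.0885% of all genes were called in EpiSC, and without the second XEN control 4.29%.

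**Figure D2:**
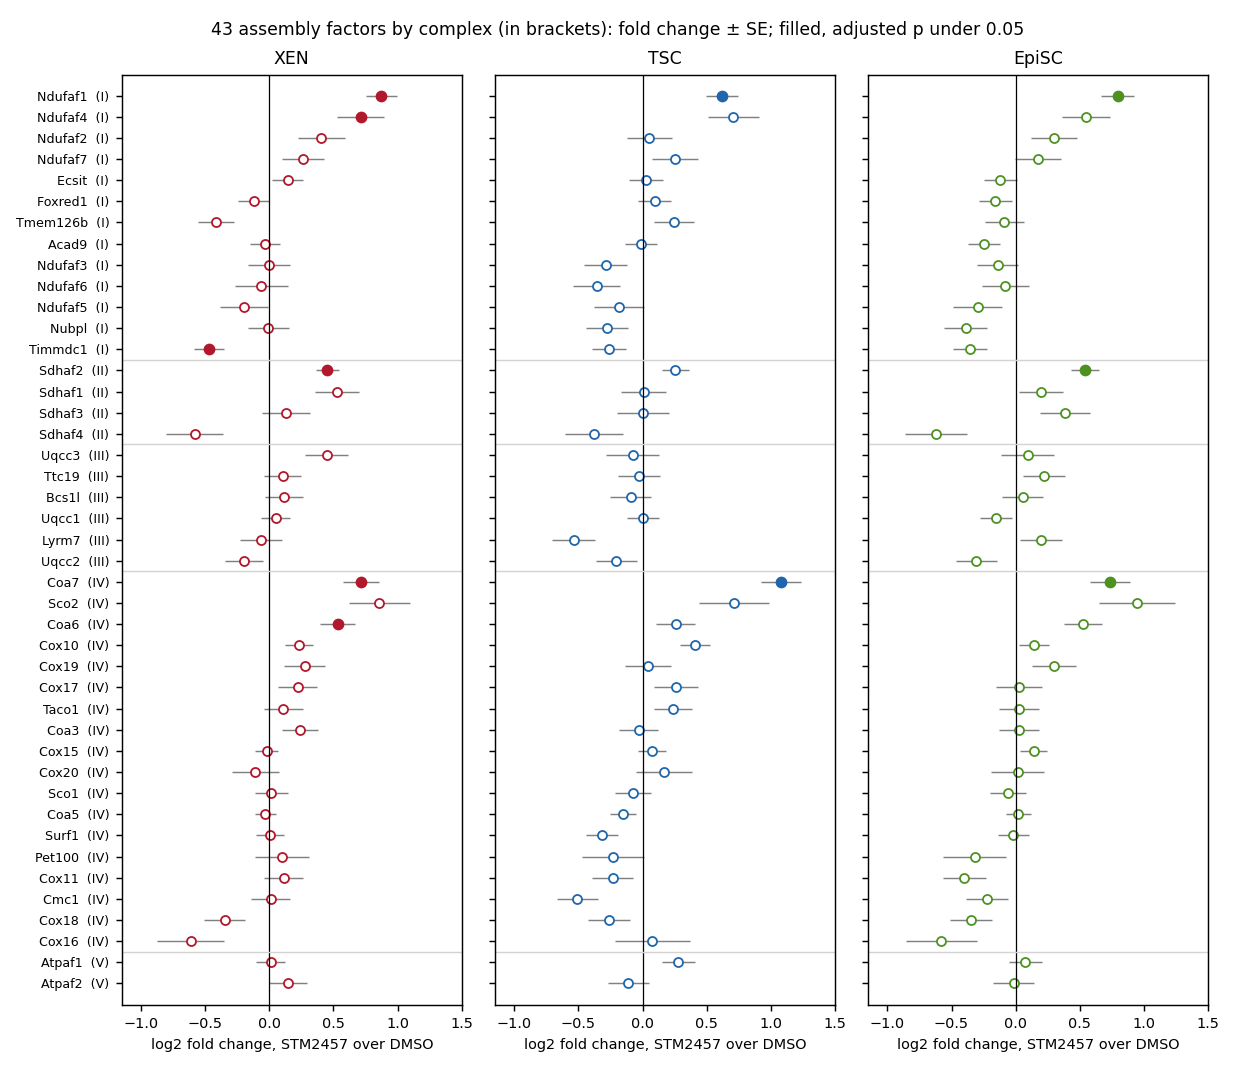
Log2 fold change of STM2457 over DMSO with its SE for the 43 assembly factors in XEN, TSC and EpiSC, grouped by complex and ordered by the mean change; filled points were called at an adjusted p under 0.05. Ndufaf1 and Coa7 are filled in all 3 panels, and no gene is filled on the left outside XEN.

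Without pairing, no member was called for a difference in response between lines. The 3 tests called 0 members by edgeR, beside 0.00543, 0.0109 and 0.00543% of all genes for TSC against XEN, EpiSC against XEN and EpiSC against TSC. An unadjusted p under 0.05 was met by 2, 1 and 1 members. DESeq2 called 0 as well, but for TSC against XEN it gave an adjusted p for 17 of the 43 only, and none for Tmem126b. With XEN paired, Tmem126b differed between TSC and XEN by 0.65 ± 0.16 (adjusted p = 0.04354), and Lyrm7 between EpiSC and TSC by 0.73 ± 0.17 (adjusted p = 0.0183), beside 0.95 and 1.49% of all genes. Tmem126b stood at 21.2, 27.2 and 28.3 against 17.6, 19.7 and 20.3 CPM in XEN, all lower with inhibitor, and at 16.4 and 17.2 against 21.2 and 18.7 CPM in TSC, both higher.

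Across the 43 members the effects in 2 lines resembled each other, with Pearson's r of 0.65 for XEN and TSC, 0.86 for XEN and EpiSC and 0.72 for TSC and EpiSC, and Spearman's rho of 0.56, 0.78 and 0.63. These are correlations across genes, which are not independent replicates, and each line used its own libraries. Over all genes tested, where many counts are low, r was 0.08, 0.10 and 0.13 and rho 0.28, 0.28 and 0.33. The change was positive in all 3 lines for 15 members and negative in all 3 for 9, that is 34.9% and 20.9%, beside 21.4% and 21.8% of all genes.

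Among transcripts of the subunits that these factors help to assemble, none was called higher. Of 74 nuclear-encoded subunits tested, 0 rose and 20 fell in the mean (27.0% of that list, beside 5.62% of all genes called lower and 7.78% higher), with a median of -0.18 beside 0.02 for the assembly factors. The 3 with the smallest p were Sdhb (-0.49 ± 0.08, adjusted p = 0.000684), the flavin-binding complex I subunit Ndufv1 (-0.40 ± 0.07, adjusted p = 0.000842) and cytochrome c1, Cyc1 (-0.35 ± 0.06, adjusted p = 0.00091). Sdha, the client of Sdhaf2 and Sdhaf4, followed (-0.36 ± 0.07, adjusted p = 0.00223). In EpiSC, Cyc1, Sdhb, Ndufv1 and Sdha fell by 0.63, 0.73, 0.58 and 0.54 on the log2 scale, and none of the 74 was called in XEN or TSC without pairing. Ribosomal protein scaling left 6 falls and a median of -0.10, with 0 rises, beside 139 falls and 1234 rises among the 18430 genes tested. That scaling moved the median of all genes by 0.11 in TSC, 0.12 in EpiSC and -0.05 in XEN. With XEN paired, 44 subunits fell in the mean, 10 in XEN, 25 in TSC and 32 in EpiSC, and 0 rose in any of these. Of the 18430 genes tested, 2541, 1259, 1259 and 1328 were then called lower, in the same order. The difference between the 2 lists was not tested.

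**Figure D3:**
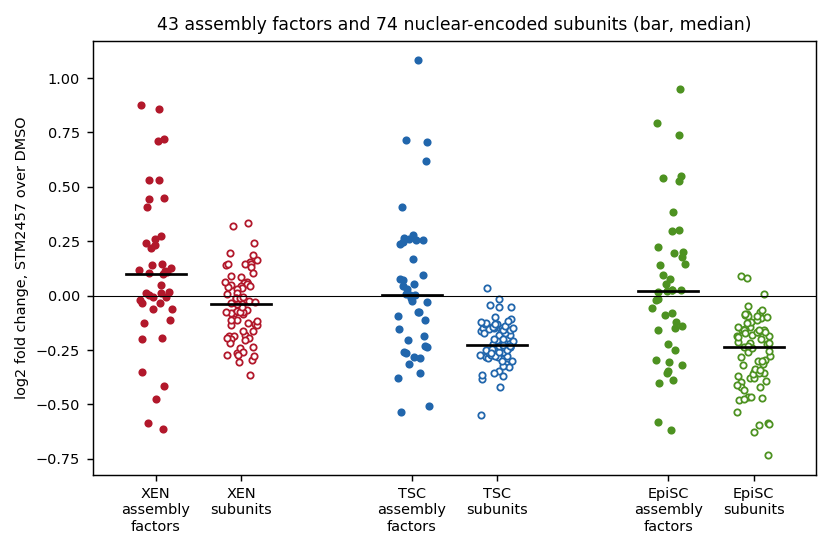
Log2 fold change of STM2457 over DMSO for the 43 assembly factors (filled) and 74 nuclear-encoded subunits (open) in each line, 1 point per gene with a bar at the median. The subunit medians are -0.04 in XEN, -0.23 in TSC and -0.23 in EpiSC, and the assembly factor medians 0.10, 0.00 and 0.02.

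A further 27 tested assembly factors gave 2 rises and 4 falls in the mean, beside 7.78 and 5.62% of all genes. With XEN paired they gave 4 rises and 6 falls, beside 28.7% of all genes called. Tmem70, needed for ATP synthase assembly, rose by 0.51 ± 0.07 and Dmac2 by 0.29 ± 0.07. Tmem186, which associates with MCIA, fell by 0.52 ± 0.10, Higd2a by 0.37 ± 0.08, the iron-sulfur carrier Nfu1 by 0.30 ± 0.07 and Tmem242 by 0.22 ± 0.07. None of these 4 falls was called with ribosomal protein scaling. Of 19 regulators of mitochondrial gene expression, 3 rose and 1 fell in the mean, beside 7.78 and 5.62% of all genes. Pprc1 (0.29 ± 0.06), Ppargc1b (0.42 ± 0.12) and the helicase Twnk (0.26 ± 0.07) rose. Esrra fell by 0.25 ± 0.07, a fall not called with ribosomal protein scaling. With XEN paired, 4 of the 19 were called higher and 5 lower, beside 28.7% of all genes called. The genes for NRF1, GABP and YY1, whose letters were searched above, were not called.

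The members differed in exon structure, a property that the list did not use. Across the 43, the mean change fell as exon junctions per kb of the longest coding transcript rose (Spearman's rho -0.48, a description across genes that share libraries), with -0.49 in XEN, -0.36 in TSC and -0.51 in EpiSC. Over 14314 tested protein-coding genes the same rho was -0.28, so the direction is not particular to assembly factors. The 9 members with under 1 junction per kb were Sdhaf1, Sdhaf2, Sdhaf3, Ndufaf4, Sco2, Cox17, Cox19, Coa5 and Coa7. Their median mean change was 0.25, with 8 of 9 positive and 4 called higher, and that of the other 34 was -0.05, with 15 positive. Among all coding genes tested, the 2568 with under 1 junction per kb had a median of 0.17, with 69.6% positive, and the rest -0.02. How many of the 2568 were called higher was not counted, so the 4 calls can only be set beside 7.78% of all genes tested. The boundary of 1 was chosen after the values were seen.

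The single genes fill this out. Coa7, Ndufaf4 and Sdhaf2 each have 3 exons, the longest of 3422, 3308 and 3598 bases, and Sdhaf1 has 1 exon. Ndufaf1, with 5 exons and 2.71 junctions per kb, rose by 0.76, above the median of the 9 members with few junctions, and Coa5, with 3 exons, the longest of 3544 bases, had a mean change of -0.05. The falling genes Timmdc1, Cox18 and Sdhaf4 have 3.81, 3.75 and 2.93 junctions per kb. These structures come from GENCODE M21, an annotation of an earlier build than the one used for counting, and m6A itself was not measured here.

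**Figure D4:**
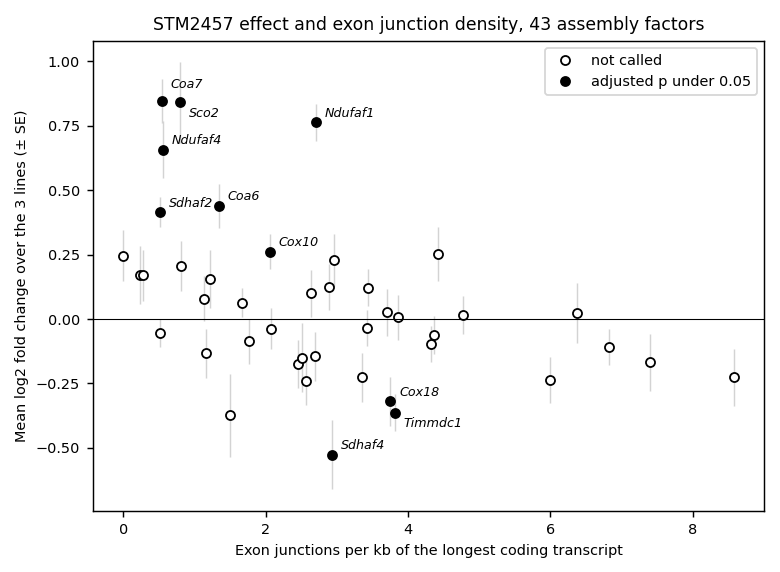
Mean log2 fold change over the 3 lines, with its SE, against exon junctions per kb of the longest coding transcript for the 43 assembly factors; filled and named points were called. Coa7, Sco2, Ndufaf4 and Sdhaf2 lie under 1 junction per kb, and the 3 named points below 0 lie between 2.93 and 3.81.

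Without inhibitor, most members differed between lines, as did most genes. TSC against XEN called 29 of 43 (18 higher, 11 lower), beside 72.5% of all genes (36.5% and 36%). EpiSC against XEN called 28 (20 and 8), beside 71.7% (36.6% and 35.1%), and EpiSC against TSC 19 (12 and 7), beside 54.4% (27.4% and 27%). The directions depend on the scaling: with ribosomal protein scaling the counts were 33 (0 higher, 33 lower), 30 (3 and 27) and 17 (16 and 1). Of all genes, 75.7, 73.1 and 51% were then called, and 19.3, 25.7 and 66.8% of those calls were higher. That scaling put the median of all genes at -1.05, -0.75 and 0.28. Ribosomal protein genes took 2.66 to 3.59% of counts in XEN and 6.06 to 8.33% in the other lines. The following values are therefore relative to the bulk of genes. Without the second TSC control, EpiSC against TSC called fewer members and fewer of all genes. The median member difference was then 0.046, beside 0.021 with all libraries.

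Cox15, of haem A synthesis, was highest in XEN, at 116.1, 108.5 and 112.0 CPM, against 43.03 and 39.0 CPM in TSC and 36.8 and 36.6 CPM in EpiSC. The XEN libraries were apart from both other lines, with TSC lower by 1.45 ± 0.10 on the log2 scale (adjusted p = 1.454e-09) and EpiSC by 1.61 ± 0.10 (adjusted p = 4.358e-10), and lower with ribosomal protein scaling too. Its partner Cox10 had another order, EpiSC above TSC and XEN (0.91 ± 0.12 and 1.01 ± 0.11), the second not called with ribosomal protein scaling (0.22 ± 0.15). Uqcc3 and Sdhaf2 were also highest in XEN, Uqcc3 at 30.0 to 49.7 CPM against 16.8 to 20.1 CPM in the other lines.

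EpiSC stood apart by Ndufaf4 and Sdhaf1. Ndufaf4 was higher there by 1.88 ± 0.19 than in XEN (adjusted p = 1.705e-07) and by 1.78 ± 0.20 than in TSC (adjusted p = 1.049e-06), from the values given above. Sdhaf1 stood at 40.6 and 38.8 CPM in EpiSC, 18.5 and 19.7 CPM in TSC and 9.23 to 16.8 CPM in XEN, with EpiSC higher by 1.70 ± 0.17 and 1.06 ± 0.18 than XEN and TSC. Both calls held with ribosomal protein scaling. Sco2 was lowest in EpiSC, by -1.71 ± 0.29 against XEN (adjusted p = 5.421e-05), with the overlap caveat already given.

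TSC was marked by low Cox20 and Cox16, while Ndufaf6 and Ndufaf2 were higher in TSC and EpiSC alike than in XEN. Cox20 gave 7.17 and 7.13 CPM in TSC, 16.1, 14.6 and 23.7 CPM in XEN and 14.6 and 15.2 CPM in EpiSC, without overlap, and TSC was 1.35 ± 0.21 lower than XEN (adjusted p = 2.029e-05). The overlap caveats given for Cox20 and Cox16 apply here. Hnrnpu and Gm20498 were also called lower in TSC than in XEN (-0.40 ± 0.15 and -2.50 ± 0.68), Gm20498 at no more than 1.68 CPM in a group mean. The part of these genes was not tested. Cox16 was higher in EpiSC than in TSC by 1.05 ± 0.29 (adjusted p = 0.004763), a call lost without the first TSC control (adjusted p = 0.08454). Ndufaf6 gave 14.9 and 15.4 CPM in TSC and 7.21, 6.15 and 4.39 CPM in XEN (1.37 ± 0.19), and Ndufaf2 16.8 and 20.6 against 7.36, 6.64 and 9.15 CPM (1.26 ± 0.18). EpiSC gave 14.2 and 13.5 CPM for Ndufaf6 and 17.8 and 13.9 CPM for Ndufaf2, so XEN was the lowest line for both. Neither difference of TSC over XEN was called with ribosomal protein scaling (adjusted p = 0.2574 and 0.4033).

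**Figure D5:**
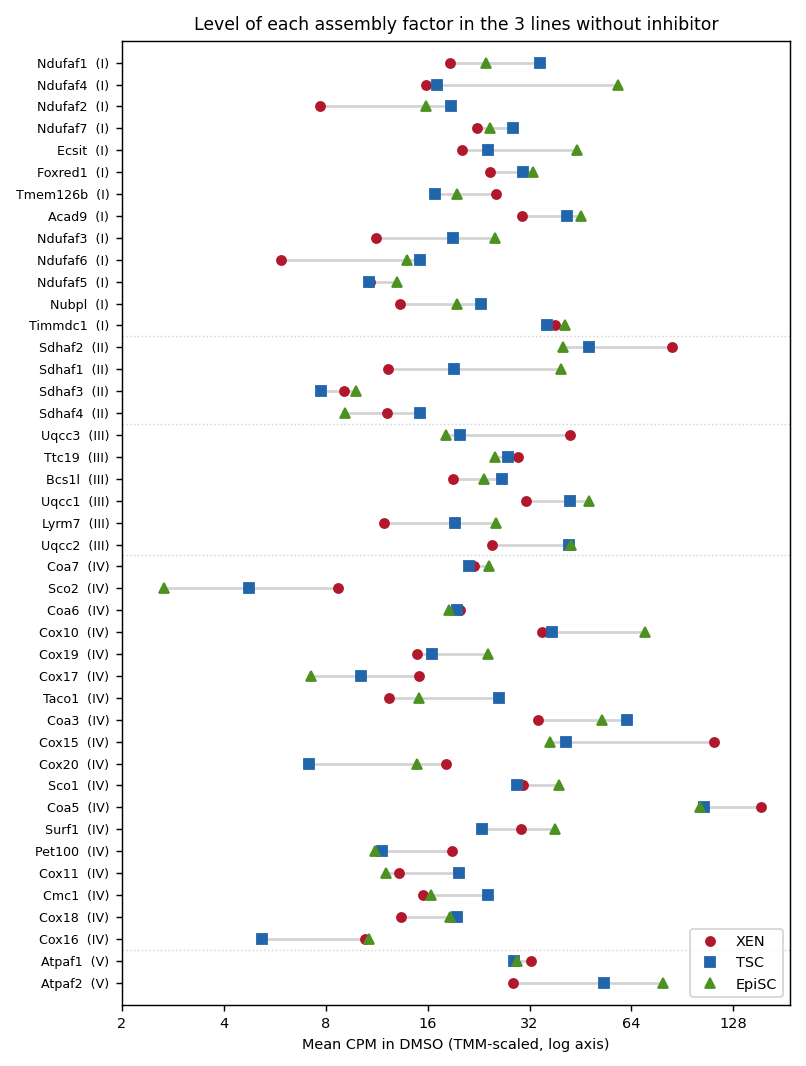
Mean CPM of the 43 assembly factors in DMSO libraries of XEN (circles), TSC (squares) and EpiSC (triangles), on a log axis, grouped by complex; grey lines span the lowest to the highest line. XEN is the lowest line for 22 members and the highest for 12, among them Cox15.

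By line mean, EpiSC was the highest line for 19 members and TSC and XEN for 12 each. With TMM scaling, no pair of lines was called for 8 members, Ndufaf5, Ndufaf7, Timmdc1, Sdhaf3, Ttc19, Coa6, Coa7 and Atpaf1, while all 3 pairs were called for 8, Ndufaf1, Ndufaf3, Sdhaf1, Lyrm7, Surf1, Sco2, Cox17 and Atpaf2. Coa6 and Coa7, which rose with STM2457, had control means of 18.5 to 20.0 CPM and 21.2 to 24.3 CPM, although ribosomal protein scaling put both lower in TSC and EpiSC than in XEN.

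Levels of different genes can be compared per length, here as CPM per kb of annotated exons. In DMSO the highest were Uqcc3 in XEN (51.5), followed by Coa3 (38.3), and Coa3 in TSC (70.2) and EpiSC (59.0), followed by Uqcc2 (49.9 and 50.6). The lowest were Sdhaf3 in XEN (1.78), Cox16 in TSC (1.38) and Cox17 in EpiSC (1.25). With STM2457, Ndufaf1 moved from rank 13 to rank 6 among the 43 in XEN. In TSC it went from 6 to 3, and in EpiSC from 13 to 5. Coa7 had ranks 28, 33 and 31 in DMSO and ranks 20, 14 and 20 with inhibitor, in the same order of lines. The summed level of all 43 was 1160 ± 58.1 (SD, n = 3) against 1265 ± 18.8 CPM in XEN, 1148 ± 41.7 against 1185 ± 9.90 (n = 2) in TSC and 1281 ± 8.49 against 1350 ± 9.90 in EpiSC. The treated sums lay above all controls in XEN and EpiSC and overlapped in TSC, where a treated and a control library both gave 1178 CPM.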

How the data were processed

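Per the labels' protocols, RNA was isolated with TRIzol and libraries were made with a TruSeq stranded total RNA kit. Per the submitters' processing notes, reads were processed with FastQC, Trim Galore, STAR and featureCounts on GRCm39 (mm39), without versions and without a strand setting. The table the authors deposited gives raw counts for each gene.

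Names and exon structure came by Ensembl identifier from GENCODE M21 (GRCm38), which left 3333 of 55416 identifiers unnamed; no coordinates of the counts were used. All 14 libraries were fitted in 6 groups with edgeR 4.0.16 in R 4.3.3: TMM scaling, filterByExpr (minimum count 10, minimum total 15), and a robust two-sided quasi-likelihood F test with Benjamini-Hochberg adjustment over 18430 genes, called under 0.05. Each SE is the log2 change divided by the root of its F. The fit was tested on simulated data. The mean effect averages the 3 line effects. Subunits matched 74 of 76 listed genes, further assembly factors 28 of 32 and regulators 20 of 20. Figures used matplotlib 3.10.9. No protein sequences were used.

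Members described with values per library are those called with treatment, the 2 next by p in each line, and the 4 largest called differences per pair of lines (mean of at least 5 CPM); from the other lists, the 3 with the smallest p are named. Values per library of Lyrm7, Tmem126b, Cmc1 and Uqcc3, and the further genes named from those lists, were chosen after their values were seen. The members and lists were chosen with earlier results of these data known. The alternatives used DESeq2 1.42.0, other ways to scale and filter, fits of the compared libraries only, replicate blocks and leaving out each library. In XEN, libraries of equal number deviated together from their group means (r = 0.22, 0.38 and 0.34). The numbers were therefore taken to pair them, which the labels do not state. Unequal numbers gave r of -0.29 to -0.02, which is no separate support, since centring on group means sets these against the equal numbers. In TSC and EpiSC, libraries of equal number did not deviate together (r = -0.003 and -0.01).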

Additional observations from a re-analysis of the deposited data

How the results depend on the processing

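Genes called with treatment and those with the 4 largest differences per pair of lines kept their sign under every alternative run. The balance of members between lines in DMSO did not: with ribosomal protein scaling the median difference of TSC over XEN was -0.94 in place of 0.14, and that of EpiSC over XEN -0.50 in place of 0.30. With the replicate block in XEN only, the called members numbered 12 in XEN, 9 in TSC, 12 in EpiSC and 18 in the mean. Of all genes, 15.8, 15.4, 17.2 and 28.7% were called. In the differences TSC minus XEN and EpiSC minus TSC, 1 member each was called, beside 0.95 and 1.49% of all genes. With the replicate block in every line, called members numbered 12, 7, 11 and 17, beside 13.3, 11, 13.2 and 25.6% of all genes. EpiSC minus TSC gave 1, beside 0.602%. Since TSC and EpiSC numbers did not pair, these are only counts. Paired counts of the subunits and the other lists also rose by over 1.5 times and are given with those lists. DESeq2 called 6 in TSC and 5 in EpiSC, beside 1.75 and 2.09% of all 55416 genes. Only 31825 of these genes had any count, so the DESeq2 shares run low beside those of filtered genes and cannot be compared with them. The fit without a count filter called 5 in EpiSC, beside 1.84% of all genes. Ribosomal protein scaling called 2 in XEN, beside 0.76%. Fits of the compared libraries only called 0 in XEN, 17 in TSC, 16 in EpiSC and 1 in EpiSC minus TSC. Of all genes, these fits called 0.191, 30.2, 29.2 and 4.23%. In XEN, 15 members had an unadjusted p under 0.05 in the fit of all libraries, beside 17.3% of all genes. DESeq2 called 9 in XEN, beside 2.91% of all 55416 genes, again with genes without counts included. The cause was not tested, and the mean was not fitted this way. When 1 XEN library was left out, the shares of all genes called were 2.26 to 5.74% in XEN, 1.03 to 2.62% in TSC and 1.85 to 4.29% in EpiSC. Leaving out 1 library gave 3 to 8 in XEN, 0 to 3 in TSC, 0 to 5 in EpiSC, 7 to 13 in the mean, 24 to 30 for TSC against XEN, 24 to 28 for EpiSC against XEN and 11 to 20 for EpiSC against TSC in DMSO; a lone library was assumed to vary like the other groups. The mean rises of Ndufaf1, Ndufaf4, Sdhaf2, Sco2, Coa6 and Coa7 held in all 21 alternatives run for them. In XEN, leaving out single libraries lost Ndufaf4 (adjusted p up to 0.1155), Timmdc1 (0.0799) and Coa6 (0.08989). Precision was lowest for Cox16, Sco2 and Pet100, with the 3 largest SEs of the mean effect (0.16, 0.16 and 0.13).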
